A study of Mus musculus with 2 samples.

Results

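The cartilage programme of the early limb was followed through 10 genes, 3 transcription factors (Sox9, Sox5 and Sox6) and 7 genes of the cartilage matrix (Col2a1, Col9a1, Col11a1, Col11a2, Acan, Hapln1 and Matn1), of 23157 genes in the series. They were picked by gene symbol and account for 43 of the 64053 transcripts listed. RNA was taken from distal forelimbs of E12.5 mouse embryos of the strain C57Bl6CBAF1, either wild type or carrying HoxD Inv(TpSB1-Itga6), an allele in which 2.4 Mb of the chromosome with the HoxD cluster is turned around. According to the study's methods the mutant embryos were homozygous. Both samples carry the tissue label distal limb. The wild-type sample is titled wtFL, whereas its values are listed as wtDFL and the inversion as invDFL, and whether the dissections matched was not tested. The RNA came from 3 pairs of forelimbs, and whether this number is per genotype is not given in the sources used here. Each genotype is represented by 1 library, and the differences below compare 2 libraries without any replicate, so that no p-value is given. In the poly(A)-selected RNA, 9280660 reads were recovered for wild type and 9466154 for the inversion. None of the 10 genes lies on chromosome 2, where the HoxD cluster is found.

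Limb cartilage forms when mesenchymal cells condense and switch on Sox9, which is needed for the chondrocyte fate. Sox9 then acts together with Sox5 and Sox6, a closely related pair without a transactivation domain of their own, on the enhancers of the matrix genes. The matrix itself is built of collagen fibrils of types II, IX and XI, of aggrecan (Acan) that binds water and is held on hyaluronan by the link protein Hapln1, and of adaptor proteins such as matrilin-1 (Matn1), which joins fibrils and proteoglycans. In the distal forelimb at this stage the digit rays are condensing and laying down their first matrix.

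SOX proteins bind short sequences of the type ACAATG or ACAAAG, and the 250 bases before the transcription start were searched for both on either strand. RefSeq (GRCm38.p6) promoter windows were found for 8 of the 10 genes, 14 windows in all, and Sox9 and Col2a1 were not matched. Printed here are the windows of both genes that were over 1.5-fold higher in the inversion library, Matn1 and Acan, and windows of Sox5 and Sox6 that hold the searched letters. None of the 4 overlaps an exon of GENCODE M21. They read 5′ to 3′ towards the start of the gene, in lower case, with matches to either motif in capitals.
Matn1, chr4:130944135-130944384, + strand: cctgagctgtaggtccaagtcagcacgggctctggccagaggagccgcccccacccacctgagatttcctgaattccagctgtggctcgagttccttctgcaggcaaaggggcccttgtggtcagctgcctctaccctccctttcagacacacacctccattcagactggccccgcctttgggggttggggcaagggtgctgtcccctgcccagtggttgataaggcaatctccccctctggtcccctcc
Acan, chr7:79052976-79053225, + strand: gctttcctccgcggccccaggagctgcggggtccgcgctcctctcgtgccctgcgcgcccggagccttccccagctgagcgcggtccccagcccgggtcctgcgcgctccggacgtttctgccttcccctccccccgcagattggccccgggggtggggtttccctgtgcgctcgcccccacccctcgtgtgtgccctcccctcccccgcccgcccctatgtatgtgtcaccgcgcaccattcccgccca
Sox5, chr6:143947107-143947356, − strand: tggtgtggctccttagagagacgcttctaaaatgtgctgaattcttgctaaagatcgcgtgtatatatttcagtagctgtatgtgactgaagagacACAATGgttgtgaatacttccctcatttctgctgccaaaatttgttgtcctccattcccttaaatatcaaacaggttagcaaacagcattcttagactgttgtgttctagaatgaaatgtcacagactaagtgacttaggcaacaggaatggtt
Sox6, chr7:115824711-115824960, − strand: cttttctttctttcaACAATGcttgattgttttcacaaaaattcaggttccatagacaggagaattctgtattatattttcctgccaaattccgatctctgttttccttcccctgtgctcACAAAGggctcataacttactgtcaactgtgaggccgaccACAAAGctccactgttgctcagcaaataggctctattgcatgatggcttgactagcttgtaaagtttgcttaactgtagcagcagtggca
The Matn1 window ends at the gene start of GENCODE, whereas the RefSeq start of Acan lies 257 bases before it. The printed starts of Sox5 and Sox6 are internal, 834871 and 214086 bases into the gene. Sox5 carries ACAATG 154 bases before this start, and Sox6 has ACAATG at 235 and ACAAAG at 130 and 90 bases. In all, 6 of the 7 windows of Sox5 and Sox6 held a match and 0 of the 7 windows of matrix genes, where 6 of the former belong to Sox6 alone. Of 32851 windows in the table, 25.2% held either motif, ACAATG being found in 10.7% and ACAAAG in 16.5%. Such matches are a description of these letters, and neither a match nor its absence bears on binding. The Acan window was rich in G and C (74.4%), the Sox5 window was not (39.6%), and the median of all windows was 52.4%.

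The matrix genes were mostly higher in the inversion library, while the transcription factors were near or slightly below their wild-type level. Of the 7 matrix genes, 6 had a log2 ratio (inversion over wild type) above 0, with a median of 0.37, and of the 3 transcription factors 1 was above and 2 were below 0, with a median of -0.09. The median of all 16756 genes that passed a filter of 10 normalized reads on average was -0.02, and all 10 genes passed it. The difference between both medians was 0.46. Each median is the value of 1 gene, Col2a1 for the matrix genes and Sox9 for the transcription factors. Summed up, the matrix genes went from 13519 to 16639 normalized reads (log2 ratio 0.30, 95% counting interval 0.27 to 0.33) and the transcription factors from 5072 to 4739 (log2 ratio -0.10, 95% counting interval -0.16 to -0.04). There were 2.67 matrix reads per transcription factor read in wild type against 3.51 in the inversion library. Normalized reads are reads over a size factor estimated for each library, log2 ratios carry a pseudocount of 1, and intervals are exact Clopper-Pearson intervals that cover counting error only. Where a pair of values is given, wild type comes first. In bulk tissue, fewer cells of a type and less RNA per cell cannot be told apart.

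With a threshold of 1.5-fold, 2 of the 10 genes were higher (Acan and Matn1) and 0 were lower. Among all genes tested, 9.41% were higher and 2.04% lower by this threshold, so that 2 of 10 is not far from the background. At 2-fold, Matn1 alone was higher and 0 were lower, against 3.99% and 0.483% of all genes. With each gene represented by its transcript of highest mean, 4 of the 10 were at least 1.5-fold higher, with Col2a1 and Col11a2 just past the threshold, against 9.03% of all genes. With coding transcripts only it was 3 of 10 (Acan, Matn1 and Col11a2), against 7.50%. This setting also left out identifiers not found in GENCODE M21. The plot of reads by library shows that both libraries nearly coincide within each of Sox9, Sox5 and Col11a1, and are furthest apart in Acan and Matn1.

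**Figure D1:**
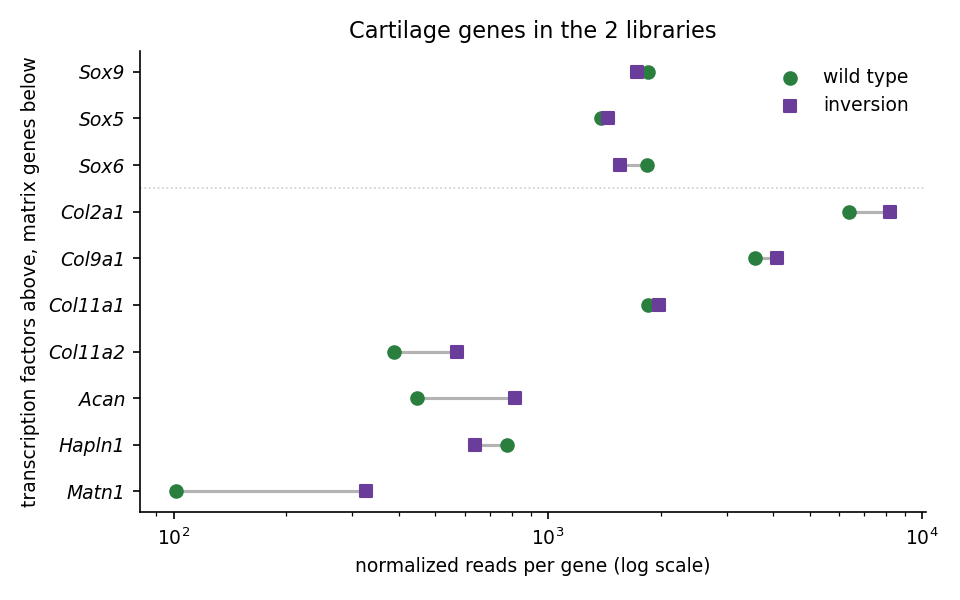
Normalized reads per gene (log scale, x axis) of the 3 transcription factors and the 7 matrix genes (y axis) in the wild-type library (circles) and the inversion library (squares), 1 library each and hence no error bars. The symbols of both libraries lie almost on top of each other within Sox9 and within Sox5, and Matn1 moves from 101 to 327 normalized reads.

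Sox9, the gene at the head of the programme, is encoded on chromosome 11 (112782224 to 112787760, GRCm38). It had 1846 normalized reads in wild type against 1729 in the inversion library, and its log2 ratio was -0.09, with a 95% counting interval of -0.19 to 0.00 that just included 0. Whether the summed reads of Sox9 differed beyond counting error thus depended on the scaling. A shift of -0.02, as when scaling by the upper quartile, would put the whole interval below 0. Its coding transcript Sox9-201 held 91.6% of the wild-type reads of the gene and had a log2 ratio of -0.10, whose 95% counting interval of -0.20 to -0.00 lay just below 0. The other listed transcript, not found in GENCODE M21, had 155 and 154 normalized reads.

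Sox6, on chromosome 7 (115470872 to 116038796), was the lowest of the 3 factors, with 1844 and 1561 normalized reads and a log2 ratio of -0.24 (95% counting interval -0.34 to -0.14). This is 0.847 of the wild-type level, well under the 1.5-fold threshold. Its main transcript Sox6-204 went from 1208 to 1006 normalized reads and Sox6-205 from 396 to 314. Sox6-202, with 240 and 241, was level in the 2 libraries.

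Sox5, on chromosome 6 (143828425 to 144781977), had 1382 normalized reads in wild type against 1449 in the inversion library (log2 ratio 0.07, 95% counting interval -0.04 to 0.18), no difference beyond counting error. The sum hid transcripts that differed in direction. Sox5-204, a coding form of 1734 bases with 72.8% of the wild-type reads, went from 1005 to 912 (log2 ratio -0.14, 95% counting interval -0.27 to -0.01). Sox5-202 went from 120 to 240 normalized reads (log2 ratio 0.99, 95% counting interval 0.67 to 1.32). Sox5-201 had 0 reads in wild type against 26 in the inversion library, and the counting interval of its log2 ratio had a lower end of 2.68. Over the whole table, 5133 transcripts had no reads in wild type against 3181 in the inversion library. The longer coding form Sox5-214 was nearly the same in both, with 205 and 213. The non-coding forms were minor. Sox5-208 had 24.3 and 27.6 normalized reads, Sox5-213 had 15.2 and 21.7, and Sox5-209, a retained-intron form, had 12 and 2 reads. How reads shared by several transcripts were divided is not given in the sources used here, so that these shifts between isoforms are uncertain. Antisense genes overlap Sox5 and Sox6 in GENCODE M21 but not in the table, and the use of the strand in the assignment is not stated.

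Col2a1, the chain of type II collagen and the classical readout of chondrocytes, had the most reads of the group. Located on chromosome 15 (97975602 to 98004695), it had 6375 normalized reads in wild type against 8217 in the inversion library, with a log2 ratio of 0.37 (95% counting interval 0.32 to 0.41). It made up 47.2% of the matrix reads in wild type against 49.4% in the inversion library. Without Col2a1 the remaining 6 matrix genes still had a summed log2 ratio of 0.24. Relative to Sox9, there were 3.45 Col2a1 reads per Sox9 read in wild type against 4.75 in the inversion library.

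The size of the Col2a1 difference depended on the transcripts counted. Its 2 coding transcripts present in GENCODE M21 went from 2326 to 2656 normalized reads (log2 ratio 0.19, 95% counting interval 0.11 to 0.27), Col2a1-202 from 1395 to 1529 and Col2a1-201 from 931 to 1127. The 7 non-coding ones, 3 annotated as retained introns and 4 as processed transcripts, went from 665 to 1107 (log2 ratio 0.73, 95% counting interval 0.59 to 0.88). The 2 identifiers not found in that release went from 3384 to 4454 (log2 ratio 0.40). Of these, ENSMUST00000088354 had the most reads of all, 1824 and 2748, a log2 ratio of 0.59, while ENSMUST00000109174, with 1560 and 1706, had a ratio of 0.13. Among the small transcripts Col2a1-208 had 212 and 416 normalized reads and Col2a1-209 had 22.3 and 84.9, while Col2a1-207 was lower, with 135 and 107. The remaining small ones were all higher, Col2a1-204 at 86.1 and 159, Col2a1-205 at 56.7 and 113, Col2a1-206 at 146 and 195, and Col2a1-203 at 8.10 and 33.6 normalized reads. All 3 classes were higher in the inversion library, the non-coding class by the most. The same classes were not compared over all genes. With all transcripts, 1577 genes of the whole table were at least 1.5-fold higher and 341 lower. With coding transcripts only it was 1019 and 373.

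Col9a1 and Col11a1 differed little. Col9a1, a chain of type IX collagen that decorates the type II fibrils, is on chromosome 1 (24177610 to 24252684). It had 3575 and 4087 normalized reads (log2 ratio 0.19, 95% counting interval 0.13 to 0.26), and each of its 6 transcripts was higher in the inversion library, with log2 ratios from 0.16 to 0.78. The coding Col9a1-202 had 910 and 1015 normalized reads and Col9a1-201, the long form with an additional domain at its amino end, had 472 and 537. Their log2 ratios were about the same (0.16 and 0.19). Reads that fit both forms may have been counted for each, so that these ratios may not be independent. The non-coding Col9a1-203 had 221 and 289 and Col9a1-204 had 24.3 and 42.5, and the 2 identifiers not in GENCODE M21 had 0.19 and 0.16 as their log2 ratios. Col11a1 and Col11a2 encode chains of type XI collagen, which sits in the core of the fibril and limits its width. Col11a1, on chromosome 3 (114030540 to 114220718), had 1856 and 1979 normalized reads (log2 ratio 0.09, 95% counting interval 0.00 to 0.18, the lower end just above 0). Here the coding Col11a1-201 was higher, with 650 and 736 normalized reads (log2 ratio 0.18), whereas Col11a1-202, a coding form of 2064 bases with 93.2 and 53.3, was lower (-0.79). Of 3 identifiers not in GENCODE M21, ENSMUST00000029583 was higher (655 and 782), ENSMUST00000148429 was level (336 and 338) and ENSMUST00000029585 was lower (91.1 and 46.4). Col11a1-203, a retained-intron form, had 30.4 and 23.7. The small difference of the gene thus covers transcripts of both directions.

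Col11a2 was the collagen with the largest ratio of the 4. On chromosome 17 (34039437 to 34066685), it had 388 normalized reads in wild type against 572 in the inversion library, with a log2 ratio of 0.56 (95% counting interval 0.37 to 0.75). At 1.47-fold this remained just under the threshold, and its coding transcript Col11a2-201, with 352 and 531, lay just over it (log2 ratio 0.59). The retained-intron form Col11a2-207 had 35.4 and 36.5. The 4 collagen genes had a median log2 ratio of 0.28, and all 4 intervals lay above 0.

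Acan, the large proteoglycan of cartilage, went from 446 normalized reads in wild type to 818 in the inversion library, 1.83-fold (log2 ratio 0.87, 95% counting interval 0.71 to 1.05). It lies on chromosome 7 (79053483 to 79115099), and a single coding transcript was listed. Of all genes tested, 5.06% had a higher ratio. There were 0.241 Acan reads per Sox9 read in wild type against 0.473 in the inversion library.

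Matn1 showed the largest difference of the group and the fewest reads. On chromosome 4 (130944385 to 130955475), it had 100 reads in wild type against 331 in the inversion library, which is 101 and 327 normalized reads. This is 3.21-fold, a log2 ratio of 1.68 (95% counting interval 1.36 to 2.03), and 1.21% of the genes tested had a higher ratio. Its counting interval lay wholly above that of Acan.

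Hapln1 went the other way. The link protein gene, on chromosome 13 (89539796 to 89611652), had 778 normalized reads in wild type against 640 in the inversion library, with a log2 ratio of -0.28 (95% counting interval -0.43 to -0.13). It was the single matrix gene of the 7 that was lower, and 92.1% of all genes tested had a higher ratio. With Acan and Matn1 higher and Hapln1 lower, there were 0.573 Acan reads per Hapln1 read in wild type against 1.28 in the inversion library. For Matn1 there were 0.130 and 0.511 reads per Hapln1 read. Acan and its link protein thus differed in direction, as the plot of ratios shows. Of the 10 intervals, 6 lay above 0, 2 below (Sox6 and Hapln1) and 2 included 0 (Sox9 and Sox5). The upper end of Sox9 (0.0012) and the lower end of Col11a1 (0.0005) were so close to 0 that these counts depend on the scaling. A shift of -0.02, as under upper quartile scaling, would carry both ends below 0. The same count over all genes tested was not made, so that these numbers have no background.

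**Figure D2:**
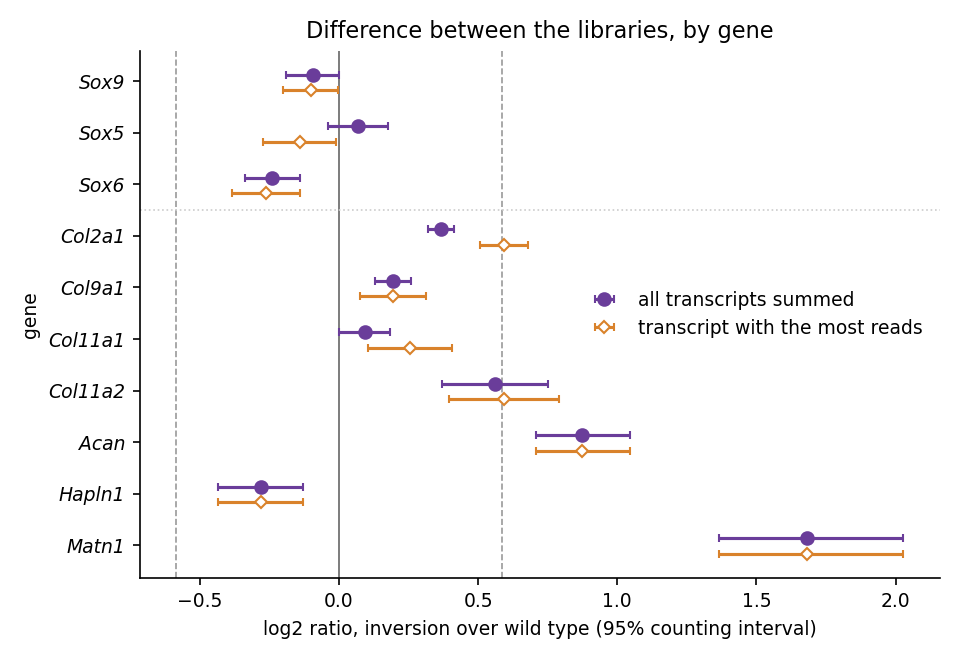
Log2 ratio of inversion over wild type (x axis) for each gene (y axis), with all transcripts summed (filled circles) or the transcript with the most reads (open diamonds). Bars are 95% counting intervals, and dashed lines mark 1.5-fold. Acan and Matn1 lie beyond the upper line, and Hapln1 and Sox6 to the left of 0.

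Levels are given per kilobase of merged exons. These span 14.4 kb in Sox5 and 14.8 kb in Sox6, against 4.135 kb in Sox9. Sox5-204, with 72.8% of the wild-type reads of Sox5, is only 1734 bases long. The merged length lowers the level of a gene read mostly from a short form, so that the place of Sox5 below Sox9 is uncertain. A read that fits several transcripts may have been counted for each, which would raise genes with many listed transcripts (Col2a1 11, Sox5 9, Col9a1 6, Col11a1 6) over Acan, Hapln1 and Matn1 with 1 each, so that the order between such genes is uncertain. In wild type Col9a1 (705 normalized reads per kb) and Col2a1 (690) came first, with counting intervals that overlapped, followed by Sox9 (446). Then came Col11a1 (146), Hapln1 (132) and Sox6 (124), where each neighbour overlapped the next, and Sox5 (96.1). Acan (59.7), Col11a2 (56.4) and Matn1 (50.6) were last and did not differ beyond their intervals.

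In the inversion library Col2a1 (889 per kb) was above Col9a1 (806), and Sox9 (418) was again the third. Matn1 (163) moved up from the last place to the fourth, next to Col11a1 (155), with overlapping intervals. Acan (109), Hapln1 (108), Sox6 (105) and Sox5 (101) followed, neighbours that did not differ beyond counting error, and Col11a2 (83.2) was last. Matn1 changed its place by the most.

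Of the 43 transcripts, 40 had at least 10 reads in both libraries together, 29 of them higher and 11 lower in the inversion library. The same count over all transcripts was not made, so that it has no background. Among all genes past 1.5-fold, 82.2% were higher. By type, 18 were coding, 17 non-coding and 8 were not found in GENCODE M21. The lower ones belonged to Sox9, Sox5, Sox6, Col2a1, Col11a1 and Hapln1.

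**Figure D3:**
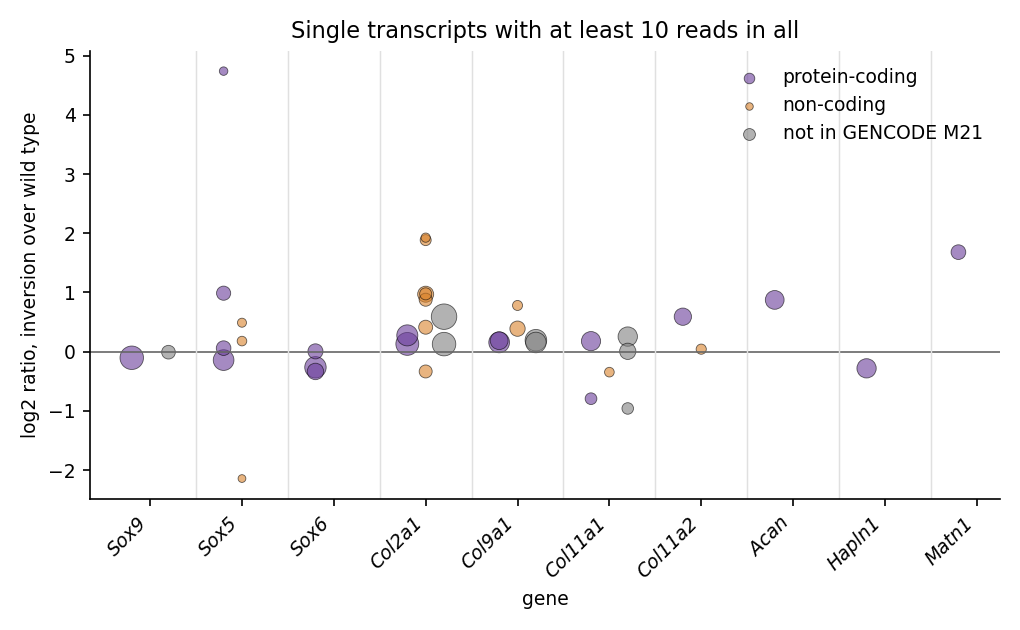
Log2 ratio of inversion over wild type (y axis) of each transcript with at least 10 reads in both libraries together, by gene (x axis). Point area grows with the mean of the normalized reads, and colour gives the transcript type. The point at the top is Sox5-201, which had 0 wild-type reads, so that its height depends on the pseudocount. The non-coding transcripts of Col2a1 spread widely. The coding transcripts of Col9a1 lie close together, and its non-coding ones lie above them at 0.39 and 0.78.

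Further genes of the cartilage matrix, described for context, were mostly higher as well. Of 12 that passed the filter, 11 had a log2 ratio above 0 (median 0.24), 3 were at least 1.5-fold higher and 0 lower. By this threshold 9.41% of all genes tested were higher and 2.04% lower. The highest was Comp, a matrix glycoprotein shared with tendon, with 23.3 and 123 normalized reads (log2 ratio 2.36), and the lowest Col9a3, another type IX chain, with 2975 and 2892 (log2 ratio -0.04). Lect1 (236 and 436) and Epyc (9.11 and 14.8, the latter on few reads) were the other 2 past the threshold. The partner chain Col9a2 was nearly level, with 3682 and 3778 normalized reads.

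Among the 11 chondrogenic regulators that passed, the median log2 ratio was 0.14. At least 1.5-fold higher were 2 and lower 0, against 9.41% and 2.04% of all genes tested. Nkx3-2, a repressor of chondrocyte maturation, was the highest (80.0 and 178 normalized reads, log2 ratio 1.14), followed past the threshold by Foxc2 (102 and 164). Gdf5, the joint growth factor, was the lowest (819 and 636, log2 ratio -0.36). The other SoxE and SoxD genes had log2 ratios near 0, Sox8 at 0.05, Sox10 at 0.05 and Sox13 at -0.06, each with a counting interval that included 0.

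The enzymes that build and sulfate proteoglycan chains stayed closer to 0 than Acan. Of 14 genes, 0 were 1.5-fold higher and 1 was lower, against 9.41% and 2.04% of all genes tested, with a median of -0.07. The lower gene was Papss2, which makes the sulfate donor and went from 1673 to 1076 normalized reads (log2 ratio -0.64, 95% counting interval -0.75 to -0.52). Csgalnact1, which starts chondroitin chains, was the highest (267 and 393, log2 ratio 0.55).

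Of 14 genes of collagen processing, 2 were 1.5-fold higher and 0 lower, against 9.41% and 2.04% of all genes tested, with a median of 0.04. The 2 higher genes were procollagen N-proteinases, Adamts3 (236 and 376 normalized reads, log2 ratio 0.67) and Adamts2 (124 and 194), while the cross-linking enzyme Loxl2 was the lowest (-0.23). In the list of mesenchymal condensation, 12 genes had a median of 0.05, and 1, Col1a1, was 1.5-fold higher (3355 and 5451, log2 ratio 0.70), near the share of all genes. The lowest gene of this list was Cdh2, at -0.05.

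The list of hypertrophic chondrocytes and bone was split. Of 9 genes that passed, 4 were at least 1.5-fold higher and 0 lower, against 9.41% and 2.04% of all genes tested, with a median of 0.13. Those higher were the osteoblast factors Sp7 (77.0 and 185 normalized reads, log2 ratio 1.25) and Runx2 (266 and 502), with Phex and, on few reads, Spp1. Col10a1, the collagen of hypertrophic chondrocytes, was the lowest (81.0 and 57.3, log2 ratio -0.49, 95% counting interval -1.01 to 0.01), and Ihh, the signal of prehypertrophic cells, had 166 and 124.

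**Figure D4:**
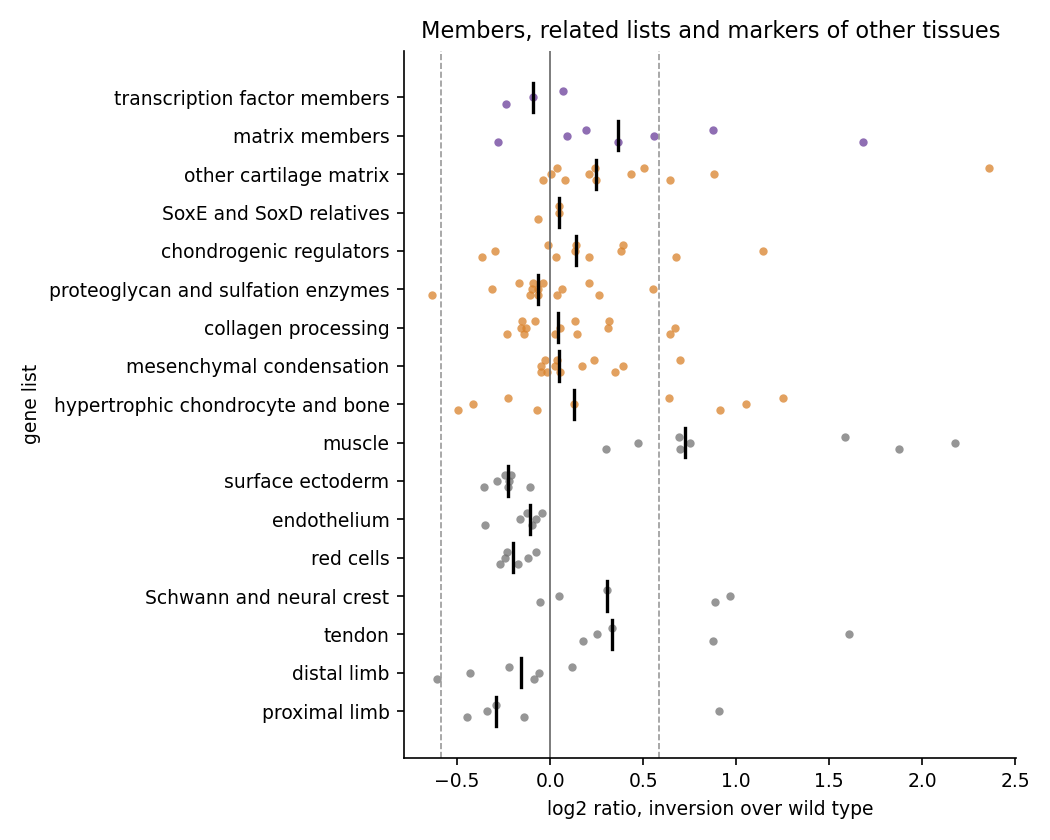
Log2 ratio of inversion over wild type (x axis) of the genes that passed the filter, by list (y axis). Each point is a gene, purple for the 10 cartilage genes, orange for related lists and grey for markers of tissues, the bar is the list median and dashed lines mark 1.5-fold. The matrix genes and the muscle markers spread to the right, and the enzymes of proteoglycan chains centre near 0.

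The libraries also differed in markers of other tissues. All 8 muscle markers were higher in the inversion library (median log2 ratio 0.73, sum from 1142 to 2316 normalized reads), as were all 5 tendon markers (0.33, 1486 to 2001). All 7 surface ectoderm markers (5723 to 4915), all 6 endothelial (3851 to 3558) and all 6 red cell markers (16588 to 13892) were lower, 4 of 5 Schwann and neural crest markers were higher (1038 to 1097), and none of these lists had a marker at 0. The 6 distal limb markers were all read, 5 of them lower (8704 to 7380). The lowest, and the only 1 past 1.5-fold, was Hoxd13 (2292 and 1503, log2 ratio -0.61). The paper reports reduced Hoxd13 transcripts in this inversion, so that this marker does not stand for tissue composition alone. Of the 5 proximal markers 4 were lower and Shox2 was higher (381 and 715), the sum going from 1389 to 1528. The libraries differed in embryo sex as well, with 2607 Xist reads in wild type against 13 in the inversion library, and 3.33 times as many normalized reads of 4 Y-linked genes in the latter. Which part these differences have in the ratios of the cartilage genes was not tested. With 1 library each, genotype, sex of the embryos and tissue composition cannot be told apart.

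The plot of all genes sets the 10 genes against the rest. Sox6, at -0.24, was below 89.5% of the genes tested, and Hapln1 below 92.1%. Col9a1, at 0.19, was below 23.7%.

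**Figure D5:**
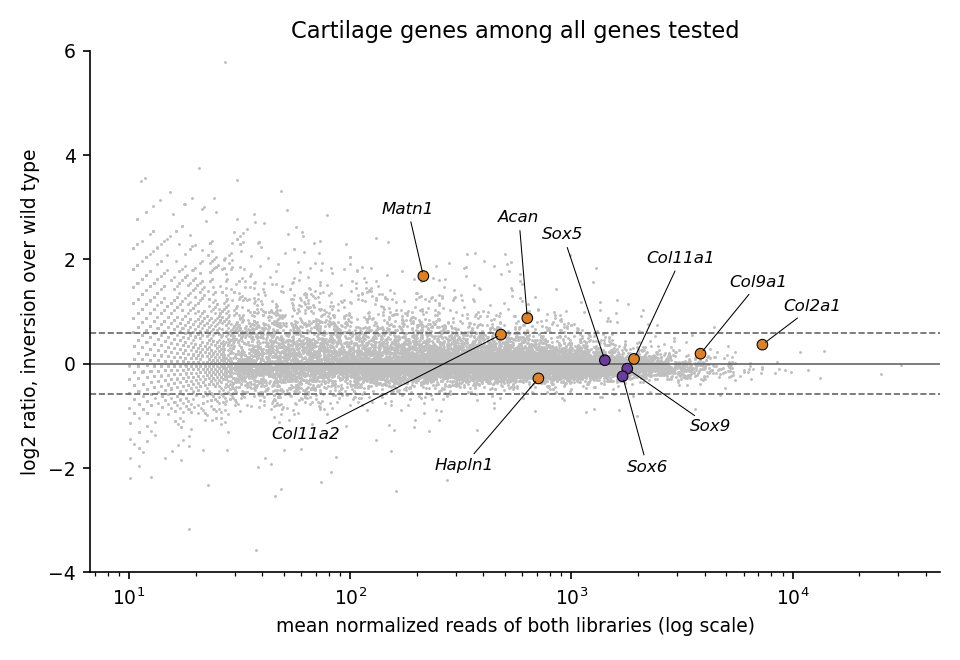
Log2 ratio of inversion over wild type (y axis) against the mean normalized reads of both libraries (log scale, x axis) for the genes tested (grey), with the 3 transcription factors in purple and the 7 matrix genes in orange. Dashed lines mark 1.5-fold, and 2 genes fall outside the y range of -4 to 6. Acan and Matn1 are above the upper line.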

How the data were processed

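RNA-seq of 1 wild-type and 1 HoxD Inv(TpSB1-Itga6) library was analysed. Per the labels and the study's methods, stranded poly(A)-selected reads were mapped to NCBIM37 (mm9), with Bowtie2 listed as a tool, and assigned to transcripts with the HTSstation pipeline. The table deposited by the authors holds, per transcript, a signal made of reads over a library size factor, with 0.5 for no reads, and the mean of both. It did not scale with length as RPKM does. The authors' fold changes, log2 values and p-values per transcript were not used. Whole reads were recovered for 100% of values within 0.1 read. Transcripts were summed by symbol and chromosome, the filter was a mean of at least 10, and a call means past 1.5-fold or 2-fold. Tests were not possible with 1 library per genotype. A read counted for several transcripts would make the intervals too narrow.

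Positions, exon lengths and types come from GENCODE M21 (GRCm38) by transcript identifier, for 88.1% of transcripts, another build than that of the mapping, with no coordinate converted. The genes and lists were chosen with earlier results of these data known. Transcripts were named at 10 reads or more in both libraries together, and of each list its highest and lowest gene, its median and its counts past 1.5-fold. Lect1, Epyc, Col9a2, Sox8, Foxc2, Adamts2, Runx2, Phex, Spp1, Ihh and Shox2 were added after their values were seen. A planned description of protein sequences was not run. Coding transcripts were those annotated so in GENCODE M21, and identifiers not found there were left out with the non-coding ones. The steps were tested on simulated libraries. The alternatives were scaling by total or upper quartile, pseudocounts of 5 and 0.1, the transcript with the highest mean, coding transcripts only, a mean of at least 100, no filter, and a 2-fold threshold. Scripts ran in Python 3.11.15 with scipy 1.17.1 for intervals, pandas 2.3.3 and numpy 2.4.6 for tables, and matplotlib 3.10.9 for plots.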

Additional observations from a re-analysis of the deposited data

How the results depend on the processing

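The median log2 ratio of the matrix genes was 0.37 with all transcripts summed. It was 0.59 for the transcript with the highest mean and 0.19 for coding transcripts only, and its difference from the transcription factors was 0.73 and 0.29. The coding setting also left out identifiers not in GENCODE M21, with 3384 of the 6375 wild-type normalized reads of Col2a1. It is thus not a comparison of coding with non-coding transcripts alone. Each median is the value of 1 gene, Col2a1 and Sox9 with all transcripts summed. For the highest transcript these were Col11a2 and Sox5. With the highest transcript 4 of the 10 genes were at least 1.5-fold higher, Col2a1 and Col11a2 being added, and 1 at 2-fold. Of 80 values of single members under these settings 79 kept their sign, the exception being Sox5 with -0.14 for its highest transcript. Most of these settings could hardly change a sign. Both changes of the filter left each member's value as it was, each scaling shifted all ratios equally, and the pseudocounts changed them little. Of the 80 values 4 moved beyond their counting interval, all through the choice of transcripts. List medians kept their sign in 115 of 120 cases, where scalings and pseudocounts again changed little. Those of collagen processing (-0.01 for the highest transcript) and of hypertrophic chondrocytes and bone (-0.07 at a mean of at least 100) were among the exceptions. Over all genes the number at least 1.5-fold higher was 1577, and 1019 for coding transcripts, 465 at a mean of at least 100, 4408 without a filter and 668 at 2-fold. For lower genes it was 341, and 373 for coding transcripts, 62 at a mean of at least 100, 1716 without a filter and 81 at 2-fold. Other scalings shifted all ratios by 0.01 (total) and -0.02 (upper quartile). The latter would carry the upper interval end of Sox9 and the lower interval end of Col11a1 below 0. No paired analysis was possible because each genotype has a single library, and for the same reason no library could be left out. Low depth limits Matn1 most, with 100 wild-type reads.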
